A study of Mus musculus with 12 samples.

Results

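Long intergenic noncoding RNA (lincRNA) genes were examined in the retinas of Pilrb1/2 knockout (KO) and wild-type (WT) mice. Members were genes whose deposited gene type was lincRNA or lncRNA, that lay on an autosome and whose mean over all 12 libraries was at least 5 CPM (counts scaled to a common library size), leaving out a list of 8 well-studied RNAs, of which 6, Malat1 and Meg3 among them, otherwise met the rule. The rule found 190 genes among the 53028 of the gene table and among 4979 autosomal genes of these types, of which 1454 were listed at 0 in all 12 libraries. All 190 carried the gene type lincRNA. The members were thus chosen by their mean CPM over all libraries, so their levels are a description and were not tested. The members just inside the limit were 1700087I21Rik at a mean of 5.042 CPM, Gm11754 at 5.015 CPM and Gm29674 at 5.001 CPM. Just outside it were Gm48843 at 4.996 CPM, D730003I15Rik at 4.995 CPM and Gm28876 at 4.942 CPM.

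A lincRNA is transcribed by RNA polymerase II, and is usually spliced and polyadenylated like a messenger RNA, but carries no long open reading frame. Some act as RNAs, in the nucleus or by binding proteins or microRNAs. Others carry microRNA or small nucleolar RNA (snoRNA) precursors inside them, or mark the transcription of a locus whose RNA has no known role. Their expression is on the whole lower and more restricted to single tissues than that of protein-coding genes, and neural tissue, the retina included, expresses many of them.

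The study asked what the loss of Pilrb, at a locus associated with age-related macular degeneration, does to the mouse retina. It sequenced polyadenylated retinal RNA of 4 groups of 3 libraries on the C57BL/6J background: Pilrb1/2 -/- (KO) at 12 months, Pilrb1/2+/+ (WT) at 12 months, KO at postnatal day 28 (P28) and WT at P28. The KO mice descend from a founder made by CRISPR editing of zygotes. The series' design text names Pilra as deleted too, while the genotype labels name Pilrb1/2 alone. The labels do not say whether each library is a separate animal, so p-values measure the spread between these libraries. In whole retina, fewer cells of a type and less RNA per cell cannot be told apart.

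The libraries held about 14.7 M to 25.9 M reads, as estimated by taking the most common low value as that of a read. On this basis 3 reads corresponded to 0.111 to 0.192 CPM. Only 13.4% to 33.5% of low values were whole multiples of that value, so both estimates are rough. Pilrb1 was above 0 in 1 library, a 12-month KO one at 0.052 CPM, and Pilrb2 in 1, a 12-month WT one at 0.0436 CPM, so the deleted genes did not check the genotype labels. Pilra was above 0 in all 12 libraries and highest in a P28 KO one (1.16 CPM). Library 2 of the P28 KO group stood apart: it was the shallowest and had the highest Malat1 level (2747 CPM), the lowest mitochondrial share (4.56%) and summed lens crystallin markers of 1818 CPM, the highest of the 12. It lay furthest from the other 2 libraries of its group for 124 of the 190 members (65.3%, against 47.0% of all tested genes). Xist marked 2 P28 KO libraries and 2 12-month WT libraries as female and the other 8 as male. Sex was thus partly confounded with genotype at both ages, and with age in both genotypes. The imbalance ran in opposite directions at the 2 ages, so it also bears on the difference of the KO effect between ages. Summed rod markers were 21879.9 to 28684 CPM in the 12-month KO, 35638 to 42639 CPM in the 12-month WT, 22247 to 27908 CPM in the P28 KO and 31610.2 to 42289.7 CPM in the P28 WT libraries. The part of sex, of cell makeup and of RNA quality in the results was not tested beyond the fits given beside them.

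The label was checked against the coordinates of the GENCODE M21 annotation of the mouse assembly GRCm38, which holds all 190 members. Of these, 141 (74.2%) neither overlapped a protein-coding gene nor started near one on the opposite strand. Another 24 started within 5 kb of a protein-coding start on the opposite strand, as divergent transcripts do. The remaining 25 were not intergenic in the strict sense: 13 overlapped a protein-coding gene on the same strand and 12 on the opposite strand. A further property of the sequences limits single values: 76 members (40%) shared more than 10% of their 31-base words with other annotated genes, and 29 shared more than 50%. Reads of such members can be assigned to their copies. Transcript GC content had a median of 45.2%, against 48.6% over all tested genes, and the median length was 2172 bases, against 2477 bases.

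Most members carry names that describe no function. Placeholder symbols beginning with Gm stood for 112 members and Riken clone names for 56, 104 had 1 annotated transcript and 41 had 1 exon. Every member was above 0 in all 12 libraries, and 189 reached 1 CPM in each. Every group mean was at least 5 CPM for 154 members, so the other 36 passed the limit through their higher groups alone. Expression was concentrated: the 2 most abundant members held 37.8% of the summed CPM of all 190, and the 4 most abundant 54.5%. The median member had a mean of 12.4 CPM and 10 members reached 100 CPM. Together the 190 genes made up 0.989% to 0.998% of the summed signal in 12-month KO libraries and 0.885% to 0.962% in 12-month WT libraries, against 0.927% to 1.06% in P28 KO and 0.877% to 0.968% in P28 WT libraries.

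The 2 leading members carry copies of miR-124, a microRNA abundant in neurons. Per transcript length, Mir124-2hg averaged 546 RPKM (reads scaled to transcript length and library size) and Mir124a-1hg, known in retina as RNCR3, 422 RPKM. Oip5os1, also called Cyrano, which in mouse brain directs the decay of miR-7, followed at 128 RPKM. 2900097C17Rik, a synonym of Norad, whose RNA binds Pumilio proteins, had 120 RPKM, with 44.7% of its 31-base words shared, and Gm45090 had 94.2 RPKM, though all of its 31-base words occur in other genes. C130071C03Rik, which hosts a copy of miR-9, and A930006I01Rik, an intergenic gene of no known role at chr2:103338601-103372764, stood lower, at 41.4 RPKM each. Between libraries Mir124-2hg had 2394, 2383 and 2106 CPM in 12-month KO, 1451, 1579 and 1573 CPM in 12-month WT, 2194, 1553 and 2506 CPM in P28 KO and 1681, 1885 and 1762 CPM in P28 WT libraries. Its 12-month KO libraries all lay above the 12-month WT ones, while the P28 groups overlapped.

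**Figure D1:**
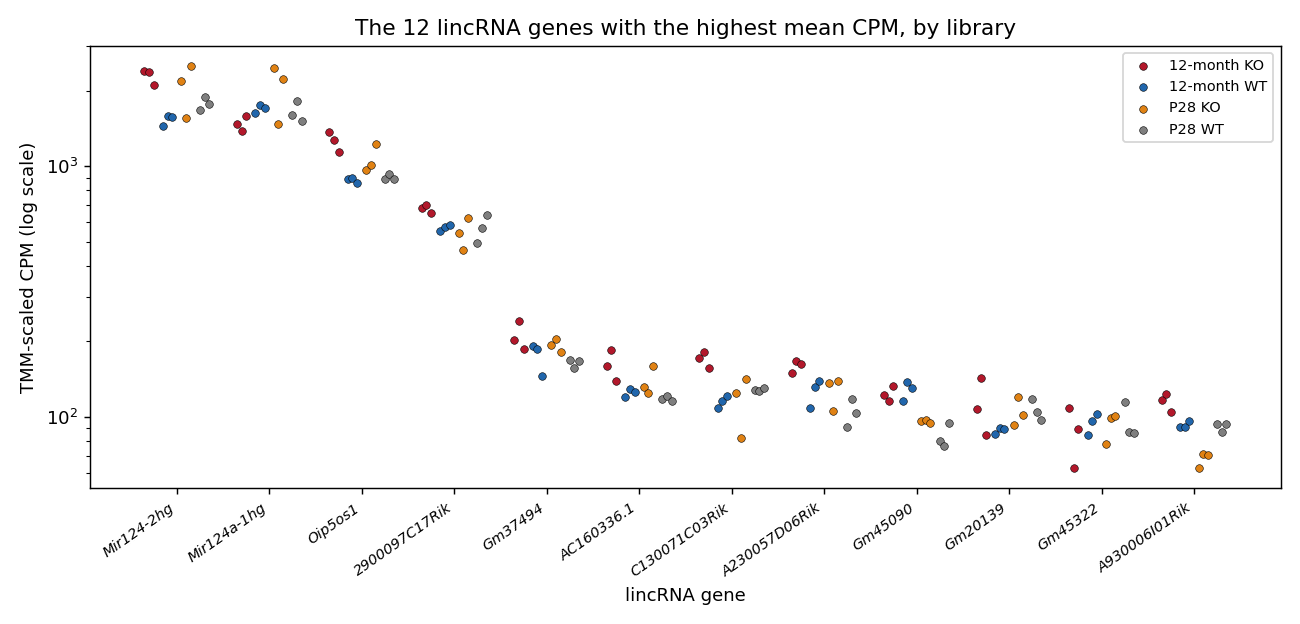
CPM on a log axis of the 12 lincRNA genes with the highest mean, from the left in falling order, with 1 point per library and 3 libraries in each of 4 groups. The first 4 genes lie between 464 and 2506 CPM, and no other gene passes 241 CPM.

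A set of lincRNA genes, with Dubr, Gm33195 and A930003O13Rik among them, was higher at 12 months than at P28 in both genotypes, and a smaller set, A930014D07Rik among them, was lower. Between 12 months and P28, 65 members passed an adjusted p of 0.05 in KO retinas (limma across all 16486 genes tested, Benjamini-Hochberg), 50 higher and 15 lower at 12 months; this is 34.2% of members, against 27.2% of all genes tested and 30.8% of those with a mean of at least 5 CPM. By direction, 26.3% of members and 13.3% of all genes were higher, and 7.89% of members and 13.9% of all genes were lower. With trends of GC content and length removed, 37 members were higher and 24 lower, or 19.5% and 12.6%, against 11.5% and 9.69% of all genes. In WT retinas 31 passed, 21 higher and 10 lower, or 16.3%, against 5.4% of all genes tested and 5.46% of those with a mean of at least 5 CPM. Higher were 11.1% of members and 3.65% of all genes, and lower 5.26% of members and 1.75% of all genes. The libraries of the 2 ages did not overlap for 89 members in KO and 90 in WT, where 36.0% and 34.9% of all genes tested did not. The CPM limit is part of these counts: 13 of the 50 members higher at 12 months in KO and 7 of the 21 in WT had a P28 mean under 5 CPM, and 3 of the 15 lower in KO and 4 of the 10 lower in WT had a 12-month mean under it. As such members reached the limit through their higher groups, their tests are not independent of the rule, and the shares above are no support for a difference between members and all genes. Among the genes named below these are A130077B15Rik, Gm49083 and Gm11754, Gm5784 in WT, and A930014D07Rik, Gm14268 and 4933433G15Rik in KO. The median log2 difference was 0.20 over members and -0.043 over all genes in KO, and 0.029 over members and 0.011 over all genes in WT. Both comparisons use separate libraries. Of the members, 20 passed in both, each in the same direction, with 17 higher and 3 lower at 12 months; these are 30.8% of the KO calls and 64.5% of the WT calls, where over all genes the shares were 13.5% and 68.0%. Across the 190 members the differences in KO and in WT had a Pearson r of 0.71, a description over genes that are not independent.

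**Figure D2:**
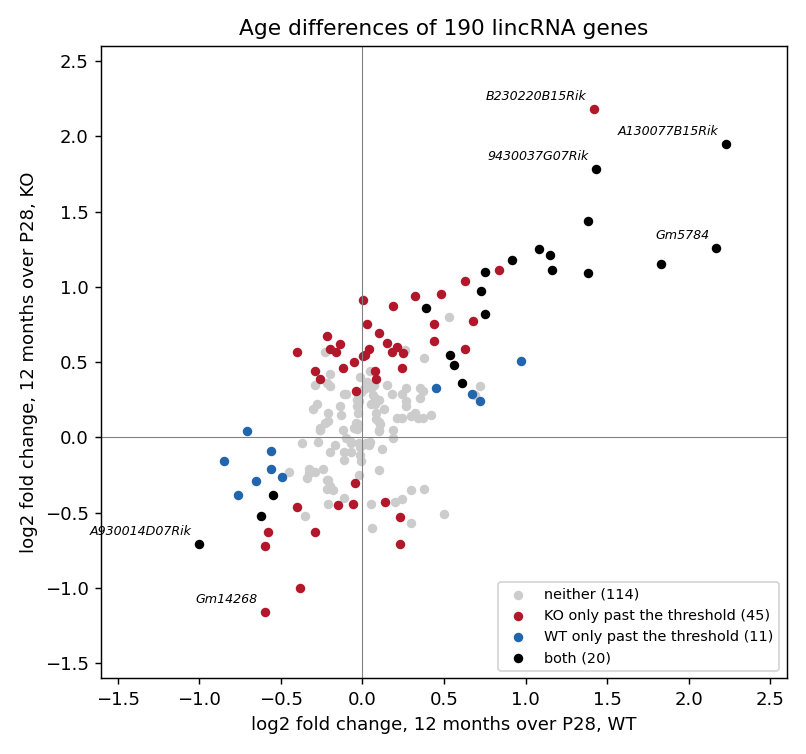
Log2 fold change of 12 months over P28 in KO libraries (vertical) against that in WT libraries (horizontal), 1 point per lincRNA gene, coloured by which comparison passed an adjusted p of 0.05. The 20 genes past it in both lie in the upper right or lower left, with A130077B15Rik at 1.95 in KO and 2.23 in WT.

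A130077B15Rik is a gene of 3 exons on the minus strand of chr10:122565023-122569891, whose nearest protein-coding gene, Ppm1h, lies 108871 bases away, and whose RNA has no known role. It had 21.6, 21.6 and 19.9 CPM in 12-month KO libraries, against 4.36, 4.71 and 5.07 CPM in P28 KO libraries. In WT it had 25.3, 30.5 and 22.4 CPM at 12 months, against 4.5, 5.06 and 4.61 CPM at P28. Every 12-month library lay above every P28 library, with no overlap in either genotype. The log2 fold change was 1.95 ± 0.13 (SE) in KO and 2.23 ± 0.13 in WT. As its P28 means of 4.71 CPM in KO and 4.72 CPM in WT lie under the limit, this is a description, and no test is given. Of its 31-base words 37.8% are shared with other genes.

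Dubr, an RNA first described beside Dppa2 and studied in mouse muscle cells, was one of the few age-linked members with a studied role. Its level was 56.5, 61.4 and 52.5 CPM in 12-month KO libraries, against 20.1, 36.2 and 23.2 CPM in P28 KO libraries, and 53.9, 57.5 and 48.2 CPM in 12-month WT libraries, against 22.2, 23.8 and 23.5 CPM in P28 WT libraries. Levels at 12 months exceeded those at P28 in every library, by 1.11 ± 0.17 in KO (limma, adjusted p = 0.000796) and 1.16 ± 0.17 in WT (limma, adjusted p = 0.0011) on the log2 scale. Gm33195, whose nearest coding gene is Cd83, had 35.7, 35.5 and 36.0 CPM at 12 months against 15.2, 19.4 and 11.1 CPM at P28 in KO, and 37.1, 43.1 and 42.0 CPM against 17.4, 19 and 17.1 CPM in WT. Here too the ages did not overlap (limma log2 fold change 1.21 ± 0.15, adjusted p = 0.000256 in KO, and 1.15 ± 0.15, adjusted p = 0.00063 in WT). A930003O13Rik starts 848 bases from the start of Lhfpl3 on the other strand and overlaps it. It averaged 103 ± 4.75 CPM at 12 months and 43.6 ± 9.45 CPM at P28 in KO, and 82.3 ± 3.99 CPM at 12 months and 38.8 ± 6.11 CPM at P28 in WT (SD, n = 3 each). Lhfpl3 itself differed by 0.80 in KO (limma, adjusted p = 0.00728) and by 0.34 in WT (limma, adjusted p = 0.321).

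Other members higher at 12 months in both genotypes were Gm5784 (log2 fold change 1.26 in KO and 2.17 in WT), Gm43263 (1.09 in KO and 1.38 in WT), Gm10419 (1.18 in KO and 0.92 in WT) and Gm49083 (1.15 in KO and 1.83 in WT). Gm45090, the ninth member by mean CPM, averaged 124 ± 8.73 CPM at 12 months and 95.8 ± 1.1 CPM at P28 in KO, and 128 ± 11.3 CPM at 12 months and 83.7 ± 9.28 CPM at P28 in WT. Its log2 fold change in KO was 0.36 (limma, adjusted p = 0.0166), and 0.10 with the GC and length trends removed (limma, adjusted p = 0.501). Together with A130077B15Rik, Dubr, Gm33195, A930003O13Rik and the falling A930014D07Rik, these 5 made up the 10 members that passed in WT under every alternative fit and every left-out library. Of the 10, A130077B15Rik, Gm49083 and Gm5784 had a P28 WT mean under the CPM limit. Their calls are not independent of the rule, and passing every fit is no support for them. Gm43263, Gm49083 and Gm45090 share 49.2%, 74.8% and 100% of their 31-base words with other genes, so their values can include reads of copies. None of the 10 contains an annotated microRNA hairpin.

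**Figure D3:**
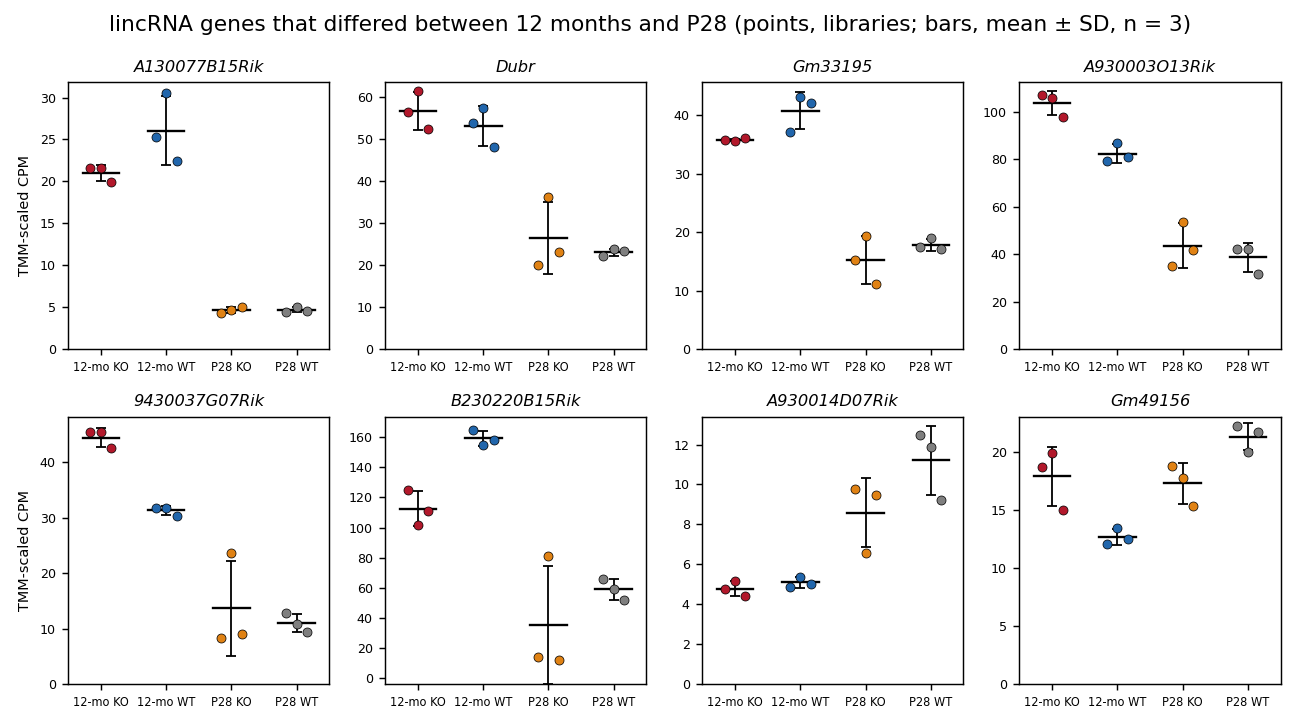
CPM of 8 lincRNA genes in 12-month KO, 12-month WT, P28 KO and P28 WT libraries, where points are libraries and bars the mean ± SD (n = 3); the first 6 panels show genes higher at 12 months, the last 2 genes lower at 12 months in WT. In P28 KO, library 2 is the high point of 9430037G07Rik (23.6 CPM) and B230220B15Rik (80.8 CPM).

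Fewer members were lower at 12 months. A930014D07Rik, an intergenic gene on chromosome 13, had 4.75, 5.16 and 4.43 CPM in 12-month KO libraries, against 9.75, 6.58 and 9.46 CPM in P28 KO libraries, and 4.87, 5.38 and 5.03 CPM in 12-month WT libraries, against 12.5, 11.9 and 9.24 CPM in P28 WT libraries. Its 12-month KO mean of 4.78 CPM lies under the limit. It was lower in both genotypes with no overlap (log2 fold change -0.71 in KO, and -1.0 in WT, limma, adjusted p = 0.00252). Gm44532, 54180 bases from Nr2f2, a nuclear receptor of retinal interneurons and glia, fell to 13.2 ± 1.69 CPM in 12-month KO, against 19.3 ± 1.51 CPM in P28 KO libraries, and to 10.6 ± 1.33 CPM in 12-month WT, against 16.8 ± 1.89 CPM in P28 WT libraries. Gm49156, 53595 bases from Otx2, the homeobox gene of photoreceptors and bipolar cells, averaged 12.7 ± 0.691 CPM at 12 months and 21.3 ± 1.13 CPM at P28 in WT (limma log2 fold change -0.71, adjusted p = 0.00465). In KO it averaged 17.8 ± 2.56 CPM at 12 months and 17.3 ± 1.79 CPM at P28 (limma log2 fold change 0.04, adjusted p = 0.829), and the difference between these age effects was 0.75 (limma, adjusted p = 0.0653). Otx2 differed by 0.16 in WT (limma, adjusted p = 0.59). Gm14268 had 5.32, 2.99 and 5.86 CPM at 12 months in KO, again with a mean under the limit, against 14.2, 11.0 and 9.57 CPM at P28 (log2 fold change -1.16).

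Some age differences in KO were smaller with P28 library 2 than without it. B230220B15Rik, which overlaps Ndufaf2 on the opposite strand and shares 89.0% of its 31-base words with other genes, had 125, 102 and 111 CPM in 12-month KO libraries, against 13.7, 80.8 and 11.9 CPM in P28 KO libraries. In WT it had 165, 155 and 158 CPM at 12 months, against 65.9, 59.3 and 52.1 CPM at P28. Libraries 1 and 3 of the P28 KO group lay far below all P28 WT libraries, and library 2 above them. The log2 fold change with age in KO was 2.18 ± 0.49 (limma, adjusted p = 0.00746), and 3.04 ± 0.11 without library 2 (limma, adjusted p = 2.95e-08). 9430037G07Rik, which contains an annotated snoRNA, had 45.4, 45.4 and 42.5 CPM at 12 months against 8.39, 23.6 and 8.96 CPM at P28 in KO, and 31.8, 31.8 and 30.4 CPM against 12.8, 10.9 and 9.47 CPM in WT. Its difference in KO was 1.78 ± 0.27 with library 2 and 2.23 ± 0.12 without it. In WT it was 1.43 ± 0.27 (limma, adjusted p = 0.00825), and 1.17 with sex as a term (adjusted p = 0.102). With sex as a term 41 members passed for age in KO and 12 in WT; in a fit of the groups compared alone, 29 passed in KO and 50 in WT. In WT, leaving out a P28 WT library left 18, 19 and 18 calls (libraries 1, 2 and 3), and leaving out a 12-month WT library left 16, 17 and 15. For these fits, too, the shares of all genes are not given, and the counts are no result about the members.

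Promoters of 5 members that differed with age are shown because the same 300-base window, 250 bases before to 50 bases after the RefSeq start, could be read for each in GRCm38.p6; the first 4 rose in both genotypes and 4933433G15Rik fell in KO. All run 5′ to 3′ on the strand of the gene. Capitals mark the GC box GGGCGG or its reverse complement CCGCCC, the photoreceptor homeodomain word TAATCC, the TATA word TATAAA, the E-box CACGTG and the cAMP element TGACGTCA.
A130077B15Rik: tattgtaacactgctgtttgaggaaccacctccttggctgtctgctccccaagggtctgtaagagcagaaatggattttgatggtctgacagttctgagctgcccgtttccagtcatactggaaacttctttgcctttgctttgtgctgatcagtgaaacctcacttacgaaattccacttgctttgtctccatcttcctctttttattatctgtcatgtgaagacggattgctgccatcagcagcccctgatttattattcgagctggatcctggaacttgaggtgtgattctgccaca
Dubr: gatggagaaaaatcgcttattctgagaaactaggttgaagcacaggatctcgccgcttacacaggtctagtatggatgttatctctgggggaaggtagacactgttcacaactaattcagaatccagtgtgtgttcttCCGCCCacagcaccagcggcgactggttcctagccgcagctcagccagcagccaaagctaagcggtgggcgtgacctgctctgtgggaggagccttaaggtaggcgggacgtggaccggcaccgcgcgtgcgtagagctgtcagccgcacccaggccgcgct
Gm33195: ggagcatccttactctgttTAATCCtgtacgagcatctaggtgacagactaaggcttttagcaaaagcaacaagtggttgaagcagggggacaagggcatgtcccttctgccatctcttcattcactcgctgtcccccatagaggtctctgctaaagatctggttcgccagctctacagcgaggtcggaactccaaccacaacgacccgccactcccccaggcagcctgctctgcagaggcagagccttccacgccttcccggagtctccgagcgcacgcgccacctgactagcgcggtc
Gm5784: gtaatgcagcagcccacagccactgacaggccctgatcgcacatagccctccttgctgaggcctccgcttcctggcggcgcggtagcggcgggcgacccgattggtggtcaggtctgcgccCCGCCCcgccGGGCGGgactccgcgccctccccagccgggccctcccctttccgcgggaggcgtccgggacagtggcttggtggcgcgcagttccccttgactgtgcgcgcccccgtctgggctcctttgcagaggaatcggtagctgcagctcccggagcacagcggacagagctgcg
4933433G15Rik: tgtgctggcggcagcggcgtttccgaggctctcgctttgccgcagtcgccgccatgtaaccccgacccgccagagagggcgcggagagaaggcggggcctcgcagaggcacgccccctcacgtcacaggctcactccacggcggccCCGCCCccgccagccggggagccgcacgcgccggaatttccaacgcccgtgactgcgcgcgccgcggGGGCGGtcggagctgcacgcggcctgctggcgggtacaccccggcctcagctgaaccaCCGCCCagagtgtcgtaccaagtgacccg

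The window of A130077B15Rik is chr10:122569842-122570141 on the minus strand, that of Dubr chr16:50732724-50733023 on the minus strand, that of Gm33195 chr13:43864306-43864605 on the plus strand, that of Gm5784 chr12:19387620-19387919 on the plus strand and that of 4933433G15Rik chr9:75409934-75410233 on the plus strand. The window of A130077B15Rik held none of the 5 words, that of Gm33195 held TAATCC once, and those of Dubr, Gm5784 and 4933433G15Rik held the GC box. Searched on both strands, TAATCC occurred in 11 of the 81 members with a RefSeq promoter (13.6%) and in 7.06% of all 32851 promoters of the same length. Among the 31 of those members that were higher at 12 months in either genotype, 2 held it (6.45%). GGGCGG occurred in 39.5% of member promoters and 35.7% of all, TATAAA in 13.6% of both, CACGTG in 9.88% of members and 7.15% of all, and TGACGTCA in 4.94% of members and 1.79% of all. These are matches of letters and no measure of binding.

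At 12 months, 58 members differed between KO and WT retinas, 45 higher and 13 lower in KO (limma, adjusted p under 0.05). This is 30.5% of members, against 39.6% of all genes tested and 45.0% of those with a mean of at least 5 CPM. KO and WT libraries did not overlap for 107 members, and for 59.1% of all genes tested. By direction, 23.7% of members were called higher, against 16.1% of all genes, and 6.84% lower, against 23.5% of all genes. The CPM limit is part of these counts too. Of the 45 higher members 5 had a 12-month WT mean under 5 CPM, and of the 13 lower 1 had a 12-month KO mean under it. The shares are thus not independent of the rule, and are no support for a difference between members and all genes. The median log2 difference was 0.16 over members and -0.029 over all genes. Transcript GC content moved with it: the KO effect had a Pearson r of -0.75 with GC over the 190 members and -0.75 over 16274 tested genes. Of the 64 members with the lowest GC content (34.1% to 43.1%), 32 were called higher and 0 lower; of the 63 with the highest (46.8% to 58.1%), 4 were called higher and 11 lower. When smooth trends with GC content and length were removed from each library, 6 members passed, 3 higher and 3 lower, of which 5 were among the 58; this is 3.16% of members, against 4.42% of all genes. What sets the relation with GC content was not tested.

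**Figure D4:**
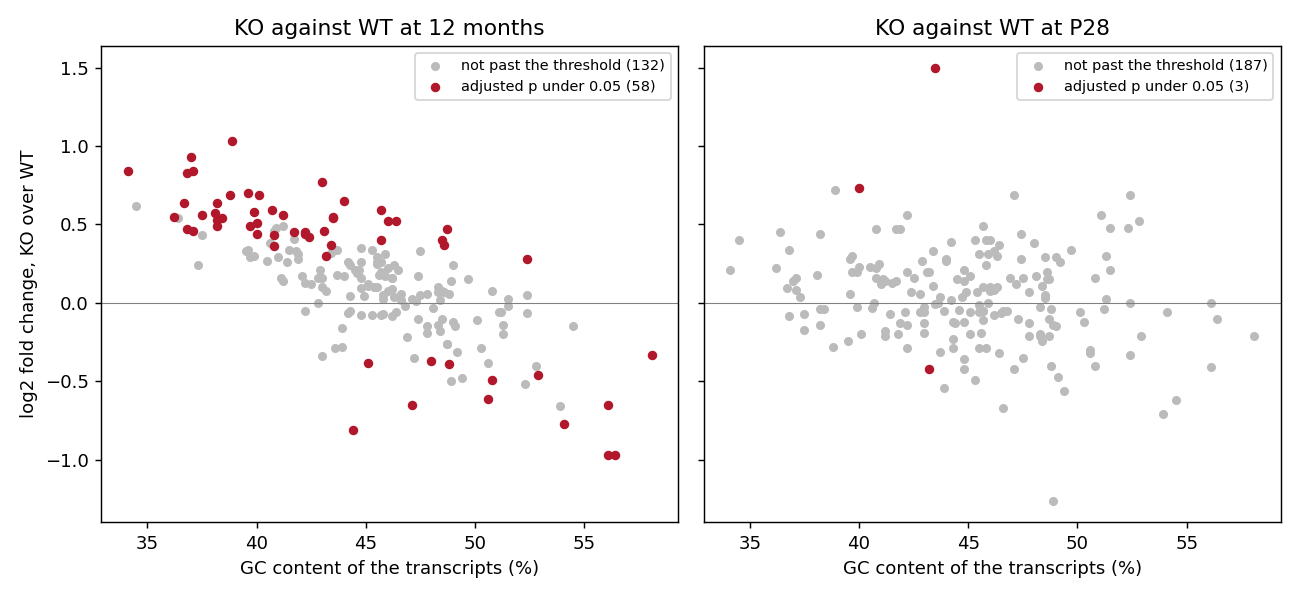
Log2 fold change of KO over WT at 12 months (left) and at P28 (right) against the GC content of the transcripts, 1 point per lincRNA gene, with genes past an adjusted p of 0.05 in red. At 12 months the points fall with GC content (Pearson r -0.75); at P28 the r is -0.21 and Gm33843 stands at 1.50.

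Other conditions moved the 12-month count as well. With sex as a term 34 members passed. Quantile normalization gave 81, of which 74 were higher, so that the share of higher calls was 91.4% against 77.6%. It also moved the median KO effect over all genes from -0.0287 to 0.0451. Without library 2 of the 12-month KO group 27 passed, without library 1 of the 12-month WT group 25 passed. The shares of all genes in these fits are not given, so the counts are no result about the members. Mitochondrial transcripts made up 9.94% to 12.6% of the signal in 12-month KO libraries and 7.36% to 8.29% in 12-month WT libraries. Gm26779, an intergenic gene on chromosome 5 of no known role, and 5031425E22Rik, which starts 172 bases from Kmt2e and is named here after its values were seen, were the only members called in every fit run at 12 months. Gm26779 had 19.3, 20.8 and 18.5 CPM in 12-month KO libraries, against 11.0, 12.3 and 11.6 CPM in 12-month WT libraries (limma log2 fold change 0.70 ± 0.12, adjusted p = 0.00281), and 0.37 with the trends removed (adjusted p = 0.0472).

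Transcripts that carry microRNA precursors were among the members higher in 12-month KO. They were the hosts of the miR-17-92 and let-7 clusters, of miR-181b and miR-101a, 1 of the miR-9 hosts and 1 of the miR-124 hosts. Of the 15 members that contain an annotated hairpin or are named for one, 6 were called higher and 1 lower, where 23.7% of all members and 16.1% of all genes were higher. For 5 of the 6 higher hosts the mature sequences could be read from RefSeq (GRCm38.p6); they are shown because a change of a host transcript need not change the microRNA, which these libraries do not measure. Capitals mark the seed, bases 2 to 8.
miR-17-5p in Mir17hg: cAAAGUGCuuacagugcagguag
miR-20a-5p in Mir17hg: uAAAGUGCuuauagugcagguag
miR-18a-5p in Mir17hg: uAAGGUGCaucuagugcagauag
miR-19a-3p in Mir17hg: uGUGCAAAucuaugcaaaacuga
miR-19b-3p in Mir17hg: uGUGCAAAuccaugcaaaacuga
miR-92a-3p in Mir17hg: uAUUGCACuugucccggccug
let-7a-5p in 6720427I07Rik: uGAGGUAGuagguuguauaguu
let-7d-5p in 6720427I07Rik: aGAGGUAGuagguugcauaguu
let-7f-5p in 6720427I07Rik: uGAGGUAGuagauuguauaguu
miR-9-5p in C130071C03Rik: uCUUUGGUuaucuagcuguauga
miR-181b-5p in Mir181a-1hg: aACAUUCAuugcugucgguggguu
miR-101a-3p in E130102H24Rik: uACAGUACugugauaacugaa

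miR-17-5p and miR-20a-5p share the seed AAAGUGC, miR-19a-3p and miR-19b-3p share GUGCAAA, and the let-7 products share GAGGUAG. Mir17hg, the host of the miR-17-92 cluster known from cell proliferation, had 22.1, 21.9 and 19.1 CPM in 12-month KO libraries, against 11.2, 13.6 and 13.3 CPM in 12-month WT libraries. The groups did not overlap, and the log2 fold change was 0.69 ± 0.15 (limma, adjusted p = 0.00475). 6720427I07Rik, which spans the let-7 cluster on chromosome 13 known from the timing of differentiation, had 62.4, 46.7 and 41.4 CPM in KO, against 31.3, 31.1 and 28.6 CPM in WT (limma log2 fold change 0.69 ± 0.16, adjusted p = 0.00643). C130071C03Rik, the host of a copy of the neural miR-9 at chr13:83721381-83884194, 54301 bases from Mef2c, had 171, 182 and 157 CPM in KO, against 109, 116 and 121 CPM in WT (0.56 ± 0.15, limma, adjusted p = 0.013). Mir181a-1hg had 16.8, 29.3 and 15.6 CPM in KO, against 8.85, 10.3 and 10.7 CPM in WT (0.93 ± 0.28, limma, adjusted p = 0.0207), and Mir124-2hg differed by 0.58 ± 0.15 (limma, adjusted p = 0.01). In each of these 5 hosts every KO library lay above every WT library.

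Not all hosts moved that way. Mir124a-1hg, the second miR-124 host, had 1478, 1379 and 1589 CPM in 12-month KO, against 1621, 1755 and 1708 CPM in 12-month WT libraries, and did not pass (limma log2 fold change -0.20, adjusted p = 0.349). Its transcripts have a GC content of 51.3%, against 39.9% for Mir124-2hg. Gm3764, which contains another copy of miR-9, differed by -0.52 with no overlap between libraries, and did not pass (limma, adjusted p = 0.0582). With the GC and length trends removed it differed by -0.12 (adjusted p = 0.777). Mir9-3hg, a listed host outside the members at a mean of 1.38 CPM, differed by -0.49 (limma, adjusted p = 0.0616). Snhg20, which contains the Mir6516 hairpin and has a GC content of 54.1%, was lower, with 9.52, 6.28 and 12.2 CPM in KO, against 16.1, 13.2 and 19.7 CPM in WT (limma log2 fold change -0.77, adjusted p = 0.0156), and differed by -0.20 with the trends removed (adjusted p = 0.505). With the GC and length trends removed, the differences of Mir17hg, 6720427I07Rik, C130071C03Rik, Mir181a-1hg and Mir124-2hg were 0.25, 0.17, 0.17, 0.39 and 0.13, and none passed (adjusted p from 0.171 to 0.467). E130102H24Rik, the miR-101a host, singled out here after its values were seen, differed by 0.28 (limma, adjusted p = 0.0294), and by 0.69 with these trends removed (adjusted p = 0.016).

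Among other members higher in KO at 12 months were C130073E24Rik (7.0, 14.2 and 8.38 CPM in KO, against 3.65, 4.07 and 4.7 CPM in WT, log2 fold change 1.03), Gm20300 (0.84), AI504432 (0.84), A330008L17Rik (0.83), which starts 171 bases from Cdh8, and 1700096K18Rik (0.77). With the trends removed these 5 genes differed by 0.49, 0.31, 0.20, 0.29 and 0.53, and none passed (adjusted p from 0.11 to 0.431). The 12-month WT mean of C130073E24Rik, 4.14 CPM, lies under the CPM limit, so its difference is a description. Oip5os1, the third most abundant member, had 1371, 1266 and 1142 CPM in KO, against 887, 898 and 857 CPM in WT (limma log2 fold change 0.51 ± 0.10, adjusted p = 0.00393); with the trends removed it was 0.016 (adjusted p = 0.919). 2900097C17Rik, the other member of the list of conserved RNAs, had 679, 701 and 650.1 CPM in KO, against 550.1, 571 and 583 CPM in WT, and did not pass (0.25, limma, adjusted p = 0.0954). Lower in KO were Gm14268 (5.32, 2.99 and 5.86 CPM, against 9.88, 8.77 and 11.3 CPM in WT, log2 fold change -0.97) and A330074K22Rik (-0.97), which starts 226 bases from the start of Gse1 on the opposite strand. With the trends removed these differences were -0.26 (adjusted p = 0.276) and -0.34 (adjusted p = 0.263). The 12-month KO mean of Gm14268 lies under the CPM limit, so its difference too is a description. Gse1 itself fell by 0.83 on the log2 scale (limma, adjusted p = 0.00332). Gm49083 was lower by a log2 difference of -0.81, and of -1.01 with the trends removed. Its P28 means lie under the CPM limit, so it is a member only through its 12-month groups. Its difference between KO and WT at 12 months is thus not independent of the rule, and is a description as well.

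At P28, 3 members passed between KO and WT, 2 higher and 1 lower, or 1.58%, against 1.49% of all genes tested and 1.96% of those with a mean of at least 5 CPM, a share near the background. Of all genes tested 1.0% were higher and 0.491% lower, and 23.8% had KO and WT libraries that did not overlap, as 45 members did. Gm33843, an intergenic gene of 3 exons at chr10:96519157-96595731 on the minus strand, 21275 bases from Btg1, an antiproliferative gene, had the largest difference. It had 21.7, 24.9 and 21.6 CPM in P28 KO libraries, against 9.2, 7.39 and 5.94 CPM in P28 WT libraries. All 3 KO libraries, library 2 included, lay above all WT libraries, at 3.03 times the WT mean (limma log2 fold change 1.50 ± 0.16, adjusted p = 0.00323). Without library 2 the difference was 1.43 ± 0.17 (limma, adjusted p = 0.00183). At 12 months it was again higher in KO, with 15.3, 12.4 and 12.9 CPM, against 9.15, 10.2 and 7.52 CPM in WT (limma log2 fold change 0.55, adjusted p = 0.0164, and 0.32, adjusted p = 0.228 with the GC and length trends removed). Btg1 differed by 0.024 at P28 (limma, adjusted p = 0.928).

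2610037D02Rik starts 3023 bases from Arid2, a subunit gene of the PBAF chromatin remodeller, on the opposite strand. It had 26.4, 36.8 and 32.3 CPM in P28 KO libraries, against 19.4, 20.0 and 16.6 CPM in P28 WT libraries (limma log2 fold change 0.73 ± 0.14, adjusted p = 0.0296). The P28 difference did not pass with the GC and length trends removed (0.63, limma, adjusted p = 0.0654) or without a filter on low values (limma, adjusted p = 0.057). At 12 months the difference was 0.44 (limma, adjusted p = 0.0237), and 0.0041 with the trends removed (adjusted p = 0.99). Arid2 differed by 0.41 at P28 (limma, adjusted p = 0.0889). The lower one, A930006I01Rik, had 62.8, 71.0 and 70.2 CPM in P28 KO, against 93.6, 87.3 and 93.3 CPM in P28 WT libraries (limma log2 fold change -0.42 ± 0.084, adjusted p = 0.0352). Neither gene's groups overlapped. The calls depended on the fit: in that of the P28 libraries alone none of the 3 passed (adjusted p = 0.106 for Gm33843 and 0.23 for the other two), and with sex as a term none passed (adjusted p = 0.0971 for Gm33843, 0.221 for 2610037D02Rik and 0.197 for A930006I01Rik). With the replicate numbers of the titles as a block, 1 passed. At an unadjusted p under 0.05, 42 of the 190 members differed (22.1%), against 21.4% of all genes tested.

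**Figure D5:**
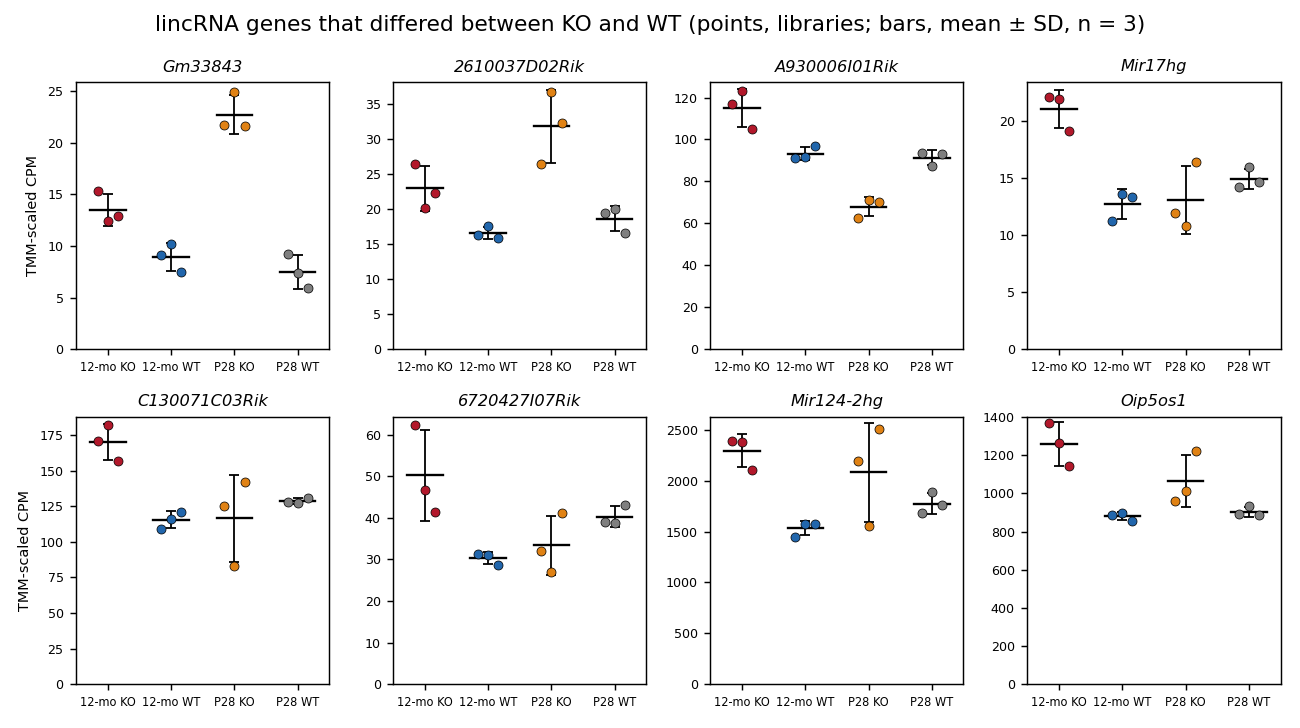
CPM of 8 lincRNA genes in 12-month KO, 12-month WT, P28 KO and P28 WT libraries, where points are libraries and bars the mean ± SD (n = 3). Gm33843 is highest in P28 KO (21.6 to 24.9 CPM), and A930006I01Rik is lower in P28 KO and higher in 12-month KO than in the WT libraries of the same age.

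Of the left-out libraries, library 2 of the P28 KO group changed the number of members that passed at P28 the most. Without it 27 passed, 12 higher and 15 lower, or 14.2%, against 8.52% of all genes tested in that fit, and the 3 members above were among them. Mir124a-1hg was then higher by 0.52 (limma, adjusted p = 0.0124), against 0.30 (adjusted p = 0.305) with all libraries. B230220B15Rik was then lower by a log2 difference of -2.12 ± 0.11 (limma, adjusted p = 5.72e-06), against -1.26 ± 0.49 (adjusted p = 0.165) with all libraries. Library 2 was the highest P28 KO library for this gene and for Gm11754, a member only through its 12-month groups, which had 0.763, 3.67 and 0.78 CPM in P28 KO, against 3.62, 3.56 and 2.06 CPM in P28 WT libraries. Leaving out P28 KO library 3, any P28 WT library or any 12-month WT library left 1 call each, and leaving out 12-month KO library 2 left 5.

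The KO effect differed between the ages for 1 member, 0.526% of members, against 0.176% of all genes tested (0.0789% with a positive and 0.0971% with a negative difference) and 0.233% of those with a mean of at least 5 CPM. At an unadjusted p under 0.05 it differed for 43 members (22.6%), against 26.7% of all genes. The 1 member past the adjusted threshold was A930006I01Rik, which was lower in KO at P28 and higher at 12 months, with 117, 123 and 105 CPM in 12-month KO, against 91.3, 91.5 and 96.7 CPM in 12-month WT libraries (limma log2 fold change 0.30 ± 0.084, adjusted p = 0.0148). With the GC and length trends removed the 12-month difference was 0.027 (adjusted p = 0.862) and that at P28 -0.46 (adjusted p = 0.0162). The WT libraries of both ages lay between the KO groups. The difference of the effects was 0.72 ± 0.12 (limma, adjusted p = 0.041). It did not pass with sex as a term (0.78, adjusted p = 0.158), with the GC and length trends removed (0.48, adjusted p = 0.0873), with the replicate block (adjusted p = 0.115), without a filter on low values (adjusted p = 0.0821), or in 9 of the 12 fits that left out 1 library. It passed without P28 KO library 2 (0.75, adjusted p = 0.013), P28 KO library 3 (0.75, adjusted p = 0.0208) or 12-month KO library 3 (0.78, adjusted p = 0.031). The number of members past the threshold was 7 without P28 KO library 2 (3.68%, against 1.43% of all genes), 22 without P28 KO library 3 (11.6%, against 15.2%) and 8 without 12-month KO library 3 (4.21%, against 4.86%), and 0 without each of the other 9.

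By role, 5 members belonged to a list of 20 genes known as snoRNA hosts, whose introns carry snoRNAs. Of these Snhg20 was lower in KO at 12 months, but not with the GC and length trends removed, and none differed with age. Among 13 listed snoRNA hosts outside the 190, 6 were higher at 12 months than at P28 in KO, such as Snhg5 (log2 fold change 0.76, limma, adjusted p = 0.00313) and Gas5 (0.39, adjusted p = 0.00875). Of 6 members in a list of microRNA hosts, 4 were higher in KO at 12 months, 2 were higher with age in KO and none passed for age in WT. Of all genes 16.1% were higher in KO at 12 months and 13.3% were higher with age in KO. None of the 4 hosts passed at 12 months with the trends removed. Of the 6 other listed hosts tested, 2 were higher in KO at 12 months, among them Mir100hg (0.49, limma, adjusted p = 0.0064). Otx2os1, the only member in a list of transcripts beside developmental regulators, had 26.3, 28.1 and 26 CPM in 12-month KO, 25.4, 26.4 and 24.1 CPM in 12-month WT, 19.6, 25.8 and 20.3 CPM in P28 KO and 24.3, 21.6 and 18.3 CPM in P28 WT libraries, and passed in none of the comparisons. None of the 190 was in the list of imprinted loci.

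Members were compared with the protein-coding gene whose start lies nearest, for the 160 pairs whose neighbour was tested. The Pearson r of the 2 effects was 0.27 for age in KO, 0.061 for age in WT, 0.19 for KO against WT at 12 months and 0.16 at P28. For the 12 members that overlap a coding gene on the opposite strand it was 0.75 at 12 months, 0.27 at P28, 0.25 for age in KO and -0.22 for age in WT. For 12 that overlap one on the same strand it was 0.55, -0.14, 0.36 and 0.34. The gene of nearest start need not be the one overlapped. The KO effect at 12 months also moved with GC content, over members and over all genes (Pearson r -0.75 in each). The sources used here do not state that the counting used strand. In none of the 160 pairs did both genes pass for age in WT, where 12 neighbours passed. Both passed in 20 pairs for KO against WT at 12 months, 14 in the same direction, where 62 neighbours passed. For age in KO both passed in 19 pairs, 16 in the same direction, where 53 neighbours passed. By position, 16 of the 141 members without a coding overlap or divergent start were higher and 9 lower at 12 months in WT, and 38 were higher and 10 lower in KO. Of all 190 members, 11.1% were higher and 5.26% lower in WT, against 3.65% and 1.75% of all genes. In KO, 26.3% of the 190 were higher and 7.89% lower, against 13.3% and 13.9% of all genes. No difference by position was tested.

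Isoform use was read from the deposited transcript table for members with several transcripts. The leading transcript of Dubr held 59.4% ± 7.19 of the summed RPKM in 12-month KO and 42.6% ± 4.16 in P28 KO libraries (SD, n = 3 each). In WT the shares were 55.0% ± 10.5 at 12 months and 48.4% ± 14.8 at P28. For 2700054A10Rik the leading transcript held 46.1% ± 5.77 in P28 KO and 70.8% ± 9.61 in P28 WT libraries, and 69.2% ± 8.34 in 12-month KO and 65.0% ± 4.89 in 12-month WT libraries. The leading transcript of Mir124-2hg held between 87.3% and 89.3% in all 4 groups. These shares come from estimated counts of overlapping transcripts and were not tested.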

How the data were processed

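Polyadenylated RNA of 12 mouse retina libraries (TruSeq Stranded mRNA, 125-base paired reads) was quantified by the authors with kallisto 0.45.0 and Ensembl 102, summed to genes with tximport 1.30.0 and scaled by the TMM method in edgeR 4.0.3, per the series' design text. That text names a human genome build, while every gene identifier used here is a mouse one and the coordinates match GRCm38. The deposited gene values are a TMM-scaled CPM signal and the deposited transcript values are RPKM. Reads per library were estimated by taking the most common low value of each library as that of a read.

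Genes at 1 CPM or more in at least 3 libraries (16486) were tested with limma 3.58.1 (R 4.3.3) on log2(CPM + 1), with 1 mean per group, 5 contrasts and an intensity trend in the prior variance. P-values were adjusted by the Benjamini-Hochberg method over all genes tested, with a threshold of 0.05. A fold change on this scale understates that of low genes. The procedure was run on simulated data with independent normal noise, for KO against WT at P28. It recovered 34.3% of log2 differences of 0.5, 89.6% of those of 1.0 and 93.9% of those of 2.0, and 3.33% of its calls were false. The simulation held no outlying library, sex imbalance or GC trend, so it cannot show how the calls fare under these. Positions, GC content and 31-base words shared with other genes came from GENCODE M21, where 98.7% of genes tested had a GC content and length. Sequences came from RefSeq (GRCm38.p6).

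Named members were the 12 of highest mean CPM, per contrast up to 8 rises and 8 falls of largest size that passed with no overlap between libraries, up to 5 per role list, and those at the CPM limit. Members and lists were chosen with earlier results of these data known. Alternatives were other pseudocounts, filters and scalings, transcript RPKM, GC and length trends removed, terms for sex or replicate number, robust moderation, only the groups compared, and each library left out; the restriction to members with few shared 31-base words was added after seeing the data. Same-numbered libraries did not deviate together (r from -0.357 to 0.308), so the numbers were not taken as pairs.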

Additional observations from a re-analysis of the deposited data

Results flagged for a closer look

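The KO effect on A930006I01Rik differed between the ages by 0.72 ± 0.12 on the log2 scale (limma interaction, adjusted p = 0.041): its log2 fold change of KO over WT was 0.30 at 12 months and -0.42 at P28. All 3 KO libraries lay above all 3 WT libraries at 12 months and below them at P28. In KO the gene was higher at 12 months than at P28 by 0.75 ± 0.084 (limma, adjusted p = 0.000102), and in WT the difference was 0.028 (adjusted p = 0.893). With the GC and length trends removed the 12-month difference was 0.027 (adjusted p = 0.862), that at P28 was -0.46 (adjusted p = 0.0162), and the difference between ages was 0.48 (adjusted p = 0.0873). The difference between ages also missed the threshold with sex as a term (adjusted p = 0.158), with the replicate block (0.115), without a filter on low values (0.0821) and in 9 of the 12 fits that left out 1 library.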

How the results depend on the processing

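Among named results that had passed with no overlap between libraries, and the 1 difference between ages, none changed sign under any alternative or left-out library. As these were picked because they passed, this is no support for them. Differences that did not pass could change sign: that of Gm49156 with age in KO was 0.04, and -0.22 with the GC and length trends removed. At P28, 3 members passed between KO and WT; 1 passed with no filter on low values, 5 with a mean of at least 5 CPM as the filter, 6 on summed transcript RPKM, 0 with sex as a term, 1 with the replicate block and 0 in the fit of those groups alone. At 12 months 58 passed between KO and WT, 6 with the GC and length trends removed, 34 with sex as a term and 38 among members with at most 10% of 31-base words shared; higher calls were 77.6% of the 58, against 85.9% under median-of-ratios rescaling and 91.4% under quantile normalization. For age in KO, 65 passed, 41 with sex as a term, 29 in the fit of those groups alone and 42 among members with few shared words; with the trends removed 61 passed, of which 60.7% were higher, against 76.9%. For age in WT, 31 passed, 12 with sex as a term, 50 in the fit of those groups alone and 18 among members with few shared words. The KO effect differed between ages for 1 member, for 2 on RPKM, and for 0 with no filter, the trends removed, sex as a term or the replicate block. The cause of these changes was not tested, except that the restriction to few shared words leaves fewer members. Where the share of all genes in the same fit is not given, such a count is no result about the members. Leaving out 1 library gave 1 to 27 members at P28, 25 to 79 at 12 months, 45 to 82 for age in KO, 15 to 43 for age in WT and 0 to 22 for the difference. The 79 at 12 months and the 43 for age in WT came without P28 KO library 2, which is in neither comparison. There the fold changes stay the same, and only the estimate of the spread, which all groups share, is changed. The replicate block is built on numbers that do not pair libraries; it gave 58 members at 12 months, 60 for age in KO and 25 for age in WT. With 3 libraries a group, and 3 reads at up to 0.192 CPM, members near the 5 CPM limit carry the largest counting error.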
